A study of Mus musculus with 8 samples.

Results

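The 8 genes described here are Esm1, Apln, Aplnr, Nid2, Cd34, Cxcr4, Adm and Unc5b, a set built around endothelial tip cells and apelin signalling. They were chosen by symbol from the feature list of the later run and matched by gene identifier to the earlier run, and all 8 were found among the 30406 genes measured in both. The data are 8 single-cell RNA libraries of YFP-positive cells from male ROSA26-eYFP+/+ Cdh5-CreERT2+ mice. Cdh5 drives the Cre recombinase in endothelial cells, and tamoxifen food from 6 weeks of age for 2 weeks switched on YFP in every group, controls included. From 8 weeks of age the mice ate chow with 5.8% fat or a high fat diet (HFD) with 60% fat for 12 to 13 weeks. Mesentery and epididymal adipose tissue were each taken on chow and on HFD, which gives 4 groups. Each group has 2 libraries, 1 from each of the repeats of the experiment, named run A and run B. A library holds the tissue of 6 mice combined into 1 pool, so the pool is the replicate and a group has n = 2.

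Tip cells lead a growing vessel sprout, and ESM1, APLN, CXCR4, UNC5B, ADM, NID2 and CD34 are among the genes used to mark them. Apelin, the peptide made from Apln, binds the G protein-coupled receptor APLNR, which in the adult is mostly found on capillaries and veins. Adipose tissue grows by enlarging and multiplying adipocytes, and its capillary bed is remodelled with it, which is why tip cell genes are of interest on a high fat diet. Arterial, capillary, venous and lymphatic endothelium are distinct cell states, and tip cell genes are not confined to sprouts in resting adult vessels.

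Run A libraries held 3461360 to 6714473 UMIs (unique molecules counted) and run B libraries 18829960 to 36779289. No more than 10 barcodes were shared by any 2 libraries. After filtering, 23113 cells were grouped into 29 clusters without the use of the 8 genes, and clusters were named from marker lists. Names end in "-like" because the clusters and their names were rebuilt from the counts, and the study may have drawn its classes otherwise. Of 19217 endothelial cells, those of clusters 4, 10 and 17 were called arterial-like, 1 and 2 capillary-like, 6, 7 and 14 venous-like, and 3 and 11 lymphatic-like. The other endothelial clusters stayed unnamed. A cluster counted as endothelial by the mean level of a list of endothelial markers, whatever other markers it held. The unnamed ones include cluster 5 (1708 cells), led by haemoglobin genes such as Hba-a1. They also include cluster 8 (1086 cells), led by adipocyte genes such as Cfd and Adipoq, and cluster 9 (1008 cells), led by mural cell genes such as Acta2. Capillary-like cells were few in run A, with 36 to 147 cells and 92457 to 246857 UMIs per library, against 874 to 2223 cells and 3842939 to 15843795 UMIs in run B. Levels are given as CPM, the UMIs of a gene per 1000000 UMIs, summed over the cells of a class in a library. A level of run A capillary-like cells therefore rests on few molecules.

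By the Gencode vM21 annotation of GRCm38, the mouse build that the submitters' processing notes call mm10, all 8 are protein-coding genes. Esm1 lies on the plus strand at chr13:113209659-113218098, Apln on the minus strand at chrX:48025146-48034853 and Aplnr on the plus strand at chr2:85136225-85139923. Nid2 lies on the plus strand at chr14:19751265-19811787 and Cd34 on the plus strand at chr1:194938819-194961279. Cxcr4 lies on the minus strand at chr1:128588199-128592293, Adm on the plus strand at chr7:110627661-110629820 and Unc5b on the minus strand at chr10:60762593-60831581. A 3' library reads only the end of each transcript, so transcripts of a gene that share an end cannot be told apart.

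RefSeq promoters (GRCm38.p6, 250 bases before to 50 after the start) matched 6 of the 8 members: Esm1, Apln, Cd34, Cxcr4, Adm and Unc5b. Of these, the promoters of Esm1, Apln and Adm, which code for secreted factors, are shown 5' to 3' on the strand of the gene. Capitals mark ACGTG or GCGTG on either strand (CACGT or CACGC when read backwards), the core letters to which hypoxia-inducible factors are known to bind.

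Esm1, chr13:113209409-113209708, plus strand: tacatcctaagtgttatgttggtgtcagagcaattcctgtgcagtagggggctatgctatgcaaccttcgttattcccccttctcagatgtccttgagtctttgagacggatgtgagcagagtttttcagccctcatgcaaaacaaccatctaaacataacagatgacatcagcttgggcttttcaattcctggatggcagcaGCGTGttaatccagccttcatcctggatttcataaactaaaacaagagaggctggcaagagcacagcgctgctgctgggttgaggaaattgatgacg

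Apln, chrX:48034804-48035103, minus strand: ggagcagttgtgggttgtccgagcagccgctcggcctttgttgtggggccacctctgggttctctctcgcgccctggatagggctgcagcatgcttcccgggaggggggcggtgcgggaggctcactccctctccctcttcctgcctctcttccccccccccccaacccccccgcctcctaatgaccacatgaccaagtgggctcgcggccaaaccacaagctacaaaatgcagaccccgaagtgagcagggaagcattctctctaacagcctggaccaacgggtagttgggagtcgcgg

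Adm, chr7:110627407-110627706, plus strand: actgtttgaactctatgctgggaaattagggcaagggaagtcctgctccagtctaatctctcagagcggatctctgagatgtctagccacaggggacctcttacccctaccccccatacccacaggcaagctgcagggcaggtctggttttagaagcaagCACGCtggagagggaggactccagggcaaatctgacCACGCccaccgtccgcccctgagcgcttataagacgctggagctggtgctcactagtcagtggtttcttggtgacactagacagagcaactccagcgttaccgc

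GCGTG occurred once in the Esm1 promoter, at 2 places in that of Adm, and not in that of Apln, while ACGTG occurred in none of the 6 promoters. Cxcr4 and Unc5b also held GCGTG once each. Over 32851 promoters of the same length, 19.6% held ACGTG, 32.4% held GCGTG and 43.8% held either, so a match is common and is a description of letters only.

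Esm1 codes for endocan, a secreted proteoglycan of endothelial cells, and it was a capillary gene in these libraries. Its mean over 8 libraries was 73.0 ± 95.2 CPM in capillary-like cells (SD, n = 8), 6.16 ± 4.64 in arterial-like, 1.46 ± 3.24 in lymphatic-like and 0.406 ± 0.460 in venous-like cells. Capillary-like cells were above arterial-like cells in 8 of 8 libraries. Neighbours among the lower 3 classes did not differ beyond the spread of their differences. The large SD in capillary-like cells comes with the diets and the runs, described below. Within the capillary-like class, Esm1 averaged 87.0 CPM in cluster 1 (6.42 to 334, n = 8 libraries with at least 20 cells). In cluster 2 it averaged 23.2 CPM (0 to 61.1, n = 4). These means cover different libraries, diets and runs, so they set no order between the clusters. A mean of 81.1 ± 84.8 CPM (0 to 175.1, n = 4 libraries) was found in unnamed cluster 21. That cluster, of 364 cells, was led by Glycam1 and Madcam1, genes of the high endothelial venules through which lymphocytes leave the blood. At a finer clustering (resolution 2.0) the cluster led by these genes held 129 cells. Which cells of cluster 21 held Esm1 was not tested.

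Apln, the ligand, was almost restricted to capillary-like cells among the named classes, and its receptor Aplnr was shared between capillary-like and venous-like cells. Apln averaged 46.2 ± 22.8 CPM in capillary-like cells, 3.83 ± 3.22 in venous-like, 1.62 ± 2.49 in arterial-like and 0.157 ± 0.444 in lymphatic-like cells, with capillary-like above venous-like cells in 8 of 8 libraries. Aplnr averaged 214 ± 80.6 CPM in capillary-like cells and 132 ± 143 in venous-like cells, which did not differ beyond the spread of their difference (higher in capillary-like cells in 6 of 8 libraries). In arterial-like cells it averaged 13.1 ± 20.8 CPM and in lymphatic-like cells 1.503 ± 1.21. The clusters show where the venous part sits. Cluster 6, led by Ackr1, the atypical chemokine receptor of postcapillary venules, averaged 227 CPM of Aplnr, while the venous-like clusters 7 and 14 averaged 11.6 and 9.53 CPM. Capillary-like clusters 1 and 2 averaged 219 and 226 CPM.

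Adm codes for adrenomedullin, a vasodilator peptide that is also needed for lymphatic growth, and its highest class was lymphatic-like. It averaged 136 ± 79.9 CPM there, 52.4 ± 38.1 in capillary-like, 7.60 ± 6.17 in venous-like and 5.52 ± 7.85 in arterial-like cells. Lymphatic-like exceeded capillary-like cells in 7 of 8 libraries and capillary-like exceeded venous-like cells in 8 of 8. The lymphatic-like level differed by run, at 39.4 to 107 CPM in run A and 145 to 256 CPM in run B, with no overlap. Most of the lymphatic-like counts, 874 of 1016, were in 1 cluster. Cluster 11, led by Spp1, averaged 389 ± 209 CPM of Adm (147.8 to 789.7, n = 8 libraries), and cluster 3, with Lyve1 and Reln among its leading genes, averaged 25.3 ± 15.1 CPM (7.05 to 53.6). The ranges of both clusters did not overlap.

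Cxcr4 and Unc5b are guidance receptors, for the chemokine CXCL12 and for netrin and other ligands. Cxcr4 averaged 21.7 ± 23.8 CPM in arterial-like and 21.0 ± 17.6 in capillary-like cells, with no order between them (higher in arterial-like cells in 4 of 8 libraries), and 1.27 ± 1.84 in venous-like and 0.302 ± 0.559 in lymphatic-like cells. Its endothelial level differed by run: arterial-like cells held 0 to 6.99 CPM in run A and 19.2 to 61.1 CPM in run B, with no overlap. Capillary-like cells held 0 to 12.15 CPM in run A and 17.1 to 55.7 CPM in run B, again with no overlap. Cxcr4 is also a leukocyte gene. Over libraries with at least 20 of the cells, B cell-like cells averaged 121.5 ± 95.9 CPM (n = 4) and T cell-like cells 50.3 ± 32.9 CPM (n = 7). Unc5b averaged 88.7 ± 26.1 CPM in lymphatic-like, 52.2 ± 25.1 in arterial-like, 47.0 ± 30.3 in capillary-like and 2.09 ± 1.81 in venous-like cells. Neighbours among the first 3 classes did not differ beyond the spread of their differences, and capillary-like cells were above venous-like cells in 8 of 8 libraries. Unc5b averaged 82.8 CPM in cluster 4, 35.5 in cluster 10 and 13.8 in cluster 17, and Cd34 averaged 206, 138 and 668 CPM in the same clusters.

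Cd34 codes for a sialomucin of the endothelial surface. It averaged 664 ± 282 CPM in capillary-like, 425 ± 71.9 in venous-like, 285 ± 153 in arterial-like and 16.8 ± 6.42 in lymphatic-like cells. Only the step down to lymphatic-like cells exceeded the spread of the differences, and it was seen in 8 of 8 libraries. Capillary-like cells held 701 to 1142 CPM of Cd34 in run A and 335 to 594.5 CPM in run B, with no overlap. Their mean was above that of venous-like cells in run A (889 and 390 CPM) and not in run B (440 and 459.5 CPM). Fibroblast-like cells, which carry Cd34 in most tissues, averaged 381 ± 197 CPM. Nid2 codes for nidogen 2, a basement membrane linker protein. It averaged 52.4 ± 19.1 CPM in lymphatic-like, 33.2 ± 15.9 in capillary-like, 9.46 ± 3.89 in venous-like and 4.16 ± 2.74 in arterial-like cells. Its lymphatic level was 67.1 CPM in cluster 3 and 14.5 CPM in cluster 11, the reverse of Adm. Fibroblast-like cells were higher still in Nid2, at 85.5 ± 30.5 CPM (n = 8).

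**Figure D1:**
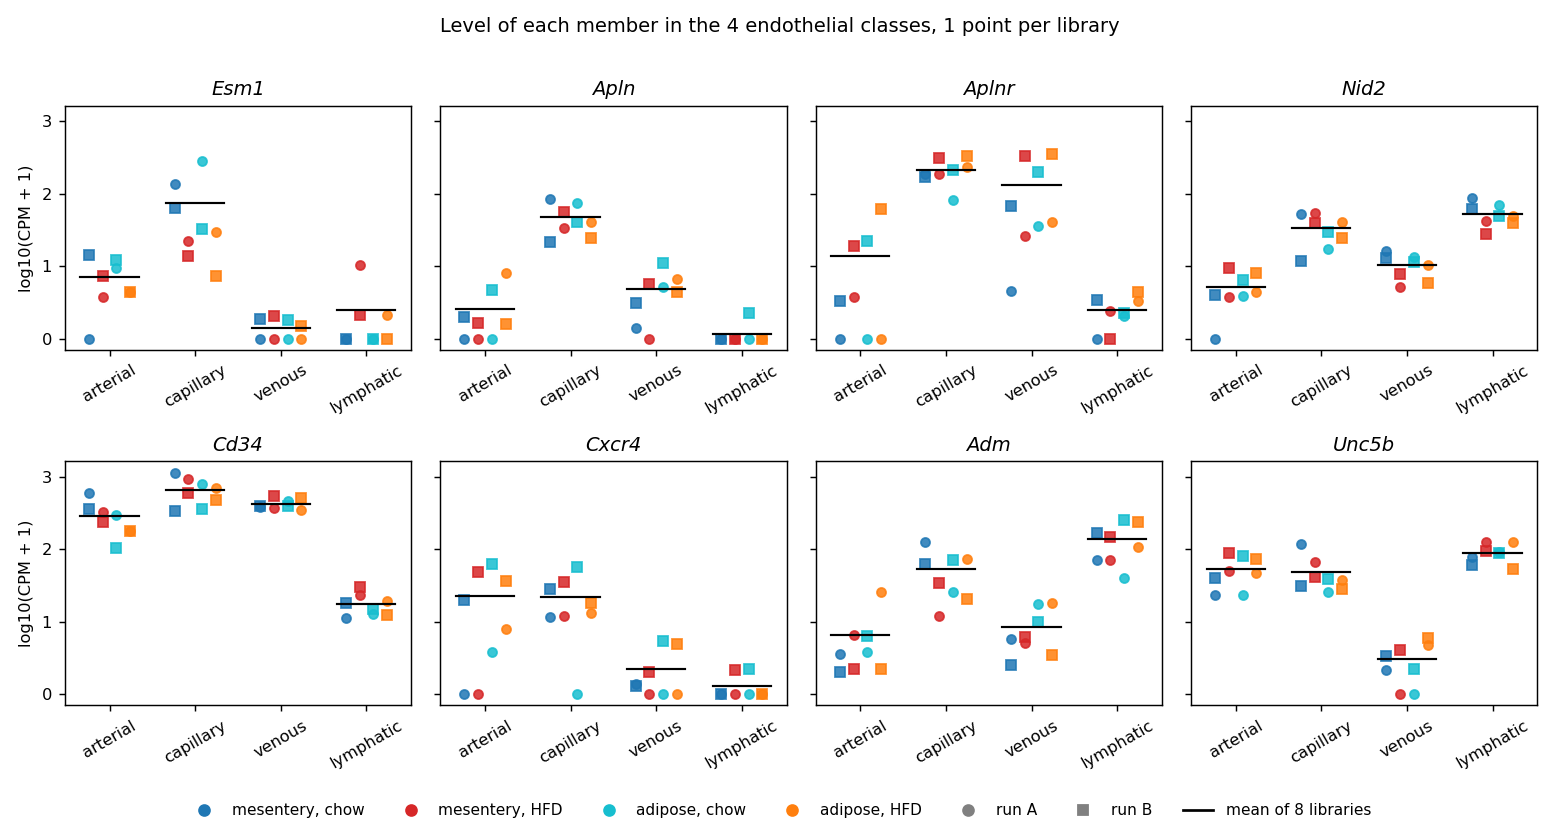
Level of the 8 members in arterial-like, capillary-like, venous-like and lymphatic-like cells, as log10(CPM + 1), with 1 point per library (colour for tissue and diet, circle for run A, square for run B) and a line at the mean CPM of the 8 libraries. Esm1 and Apln stand highest in capillary-like cells, and Adm, Unc5b and Nid2 in lymphatic-like cells. Cases where the runs do not overlap include Aplnr in venous-like cells and Cxcr4 in arterial-like and capillary-like cells. They also include Cd34 in capillary-like cells and Adm in lymphatic-like cells.

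**Figure D2:**
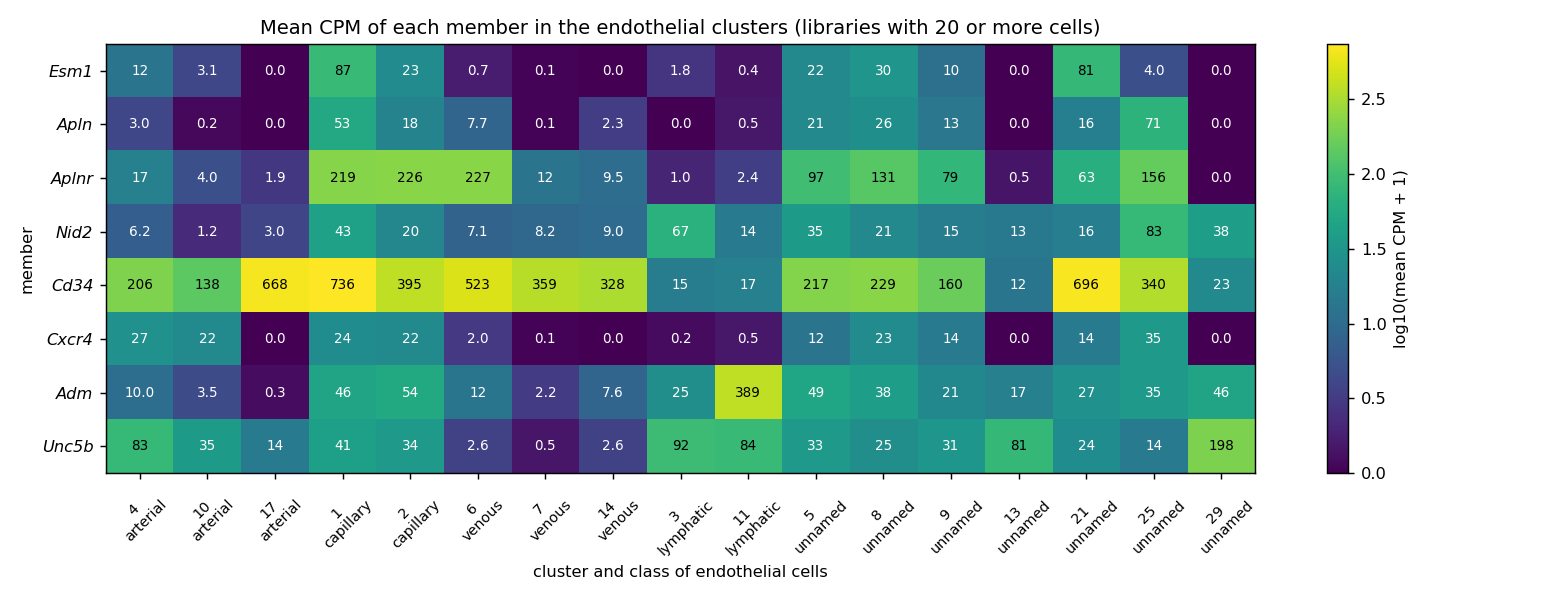
Mean CPM of each member (rows, numbers in the cells, colour as log10(mean CPM + 1)) in the 17 endothelial clusters, over libraries with at least 20 cells of the cluster. Adm reaches 389 CPM in lymphatic-like cluster 11 and Aplnr 227 CPM in venous-like cluster 6. The unnamed clusters include those led by haemoglobin, adipocyte and mural cell genes.

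The study asks what an obesogenic diet does to arterial endothelial cells, so the diets were compared within each tissue and class. Summed counts were tested with edgeR's quasi-likelihood test, once with 1 mean per group and once with the run added as a block, since the labels describe the runs as repeats of the same experiment. A gene counted as called when its p, adjusted by the Benjamini-Hochberg method over all genes tested, was under 0.05. Without the block edgeR called 0 members and 0% of all genes in each of the 15 comparisons. DESeq2 called 0 members there too, and 0 to 32 genes in all. An unadjusted p under 0.05 without the block was reached in 4 cases, Esm1 in capillary-like cells in both tissues, Cd34 in arterial-like cells and Apln in venous-like cells. With the block, calls were made, and they are described below with the values of each library. Shares of all genes called with the block are those of edgeR on a whole class. Counts with the block from DESeq2 or another alternative stand without such a share, so they are not set against all genes. The p-values measure the spread between pools of mice within 2 runs.

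Esm1 was lower on HFD in the capillary-like cells of both tissues and both runs. In the mesentery it went from 136 CPM on chow to 21.6 CPM on HFD in run A (13 and 2 counts) and from 62.7 to 12.8 CPM in run B (241 and 74 counts). In adipose tissue it went from 285 to 28.4 CPM in run A (35 and 7 counts) and from 31.4 to 6.36 CPM in run B (497 and 39 counts). Each chow library was above the HFD library of its tissue and run. The mesentery HFD library of run A, with 2 counts, lies under the 32.45 CPM that 3 counts would give there, so its level is imprecise. The ratio of chow to HFD was 4.89 in mesentery run B, 4.94 in adipose run B and 10.0 in adipose run A. With the block the log2 change was -2.16 (SE 0.40, adjusted p = 0.000682 by edgeR) in the mesentery and -2.64 (SE 0.42, adjusted p = 2.55e-05) in adipose tissue, changes of 4.45-fold and 6.22-fold. Without the block edgeR gave -2.60 (SE 1.12, adjusted p = 1) and -3.39 (SE 1.11, adjusted p = 0.9999).

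Esm1 was the only one of 8 members tested that was called in capillary-like cells with the block, in the mesentery (0.678% of all genes called) and in adipose tissue (0.917%). The other 7 members changed by -1.13 to 1.54 on the log2 scale in the mesentery and by -1.39 to 0.95 in adipose tissue. The mesentery call was lost in edgeR when run B of chow (log2 change -1.06, adjusted p = 0.995) or of HFD (-3.50, adjusted p = 1) was left out, and in DESeq2 with the block (-2.23, adjusted p = 0.694). The adipose call was lost in edgeR without run B of HFD (-2.56, adjusted p = 0.0511), and it held in DESeq2 with the block (adjusted p = 0.0212).

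Both capillary-like clusters hold chow and HFD cells in different shares. Cluster 2 held 42.9% of the class in mesentery on chow and 2.30% on HFD in run B, and 62.4% against 1.02% in adipose tissue. In run A it held 23.7% against 22.2% and 14.9% against 61.9%. In cluster 1 alone, Esm1 went from 141 to 13.4 CPM (run A) and 64.5 to 13.1 CPM (run B) in the mesentery, and from 334 to 93.3 CPM and 30.4 to 6.42 CPM in adipose tissue. The edgeR log2 changes with the block in that cluster were -2.12 (adjusted p = 0.000138) and -2.31 (adjusted p = 0.000197). Markers of adipocytes moved with the diet as well: the 8 markers summed to 73.4 to 4039.5 CPM in the capillary-like cells of chow libraries and to 0 to 242 CPM in those of HFD libraries. In cluster 1 of run A those markers were at 0 in all 4 libraries, which held 74710 to 104800 UMIs there. Esm1 had 12 counts on chow and 1 on HFD in the mesentery and 35 and 7 in adipose tissue. In cluster 1 of run B the adipocyte markers summed to 1271 CPM on chow and 182 CPM on HFD in the mesentery. In adipose tissue they summed to 1055 and 72.6 CPM. The 7 capillary markers summed to 1594 to 4557 CPM in cluster 1 of run A and to 8882 to 9981 CPM in that of run B. The cells called capillary-like in run A thus carried weaker capillary markers. The part of both marker lists in the Esm1 result was not tested.

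The share of capillary-like cells with at least 1 UMI of Esm1 was counted after each cell was thinned to 1000 UMIs, which removes the effect of depth. It was 4.03% on chow (35 of 868 cells, exact 95% interval 2.82 to 5.56) and 0.629% on HFD (6 of 954, 0.231 to 1.36) in mesentery run B. In adipose run B it was 2.80% (62 of 2216, 2.15 to 3.57) and 0.839% (9 of 1073, 0.384 to 1.59). Run A gave 6 of 33 and 2 of 30 cells in the mesentery, and 7 of 48 and 2 of 89 in adipose tissue. Unthinned, the 4 run B shares were, in that order, 9.27%, 3.77%, 9.18% and 2.41%. Venous-like cells, which served as the measure of free RNA, held Esm1 in 1 of 2773 thinned cells (0.0361%), with median depths of 3915 UMIs there and 4512.5 in capillary-like cells. The intervals cover counting error only.

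**Figure D3:**
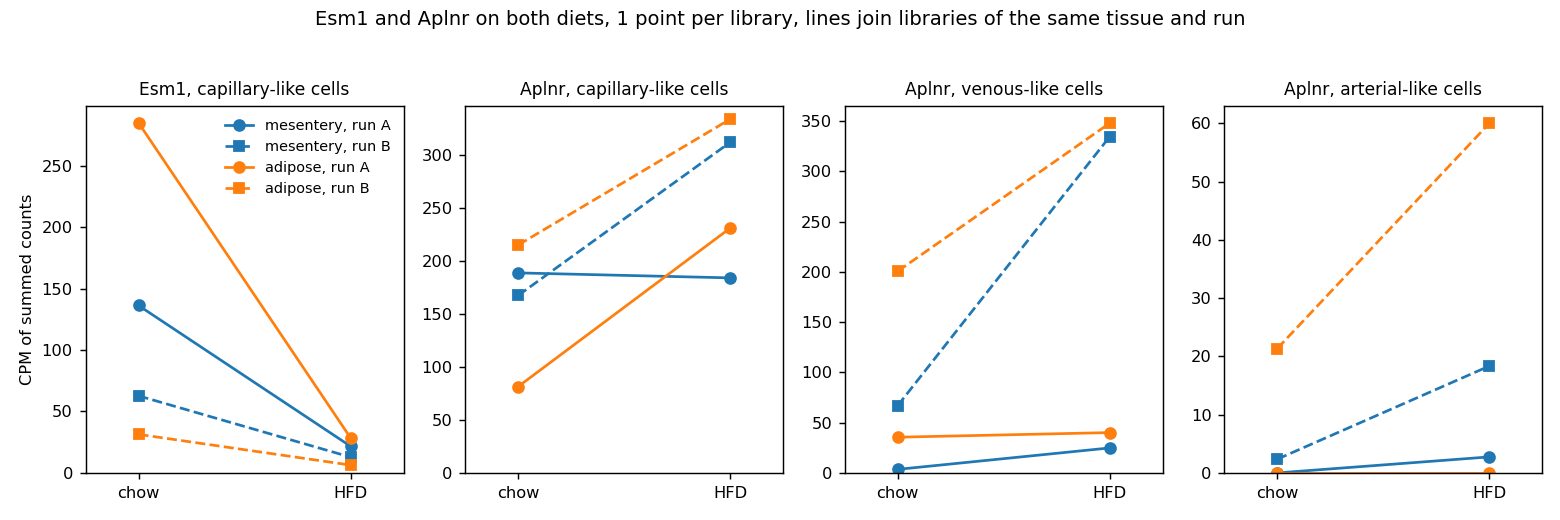
CPM of Esm1 in capillary-like cells and of Aplnr in capillary-like, venous-like and arterial-like cells on chow and on HFD, each axis starting at 0, with lines joining the libraries of a tissue and run (solid and circles for run A, dashed and squares for run B). Esm1 falls along all 4 lines, from 31.4 or more CPM on chow to 28.4 or fewer on HFD, and Aplnr in venous-like cells rises along all 4.

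Aplnr moved the other way, in different classes. In venous-like cells of the mesentery it went from 3.52 CPM on chow to 24.9 CPM on HFD in run A (9 and 6 counts) and from 67.0 to 335 CPM in run B (223 and 639 counts). In adipose tissue it went from 35.5 to 40.1 CPM in run A and from 201 to 348 CPM in run B. HFD was thus higher in all 4 pairs, and the runs differed more than the diets. With the block the log2 change was 2.50 (SE 0.33, adjusted p = 0.00265 by edgeR) in the mesentery. There Aplnr was the only 1 of 5 members tested that was called (0.192% of all genes). In venous-like cells of adipose tissue 0 of 5 were called by edgeR with the block (0.0961% of all genes), with 1 at an unadjusted p under 0.05, and DESeq2 with the block also called 0. Without the block the log2 change in the mesentery was 2.47 (SE 1.49, adjusted p = 1).

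The venous-like class held different clusters on the diets. Cluster 6, the cluster with Aplnr, made up 16.01% of mesenteric venous-like cells on chow and 31.3% on HFD in run A, and 28.9% and 78.2% in run B. Within cluster 6 Aplnr was 22.5 and 80.2 CPM in run A and 235 and 446 CPM in run B, a log2 change of 1.11 with the block (SE 0.34, adjusted p = 0.526 by edgeR), so the call did not hold there. Capillary markers moved with Aplnr across the venous-like cells of the mesentery, from 63.4 to 182 CPM in run A and from 599 to 1623 CPM in run B (7 markers summed), and their part in the result was not tested. The call was also lost in edgeR without run B of mesentery on HFD (log2 change 1.97, adjusted p = 0.793). In lymphatic-like cells of the mesenteric libraries Aplnr was at 0 to 2.48 CPM.

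In capillary-like cells Aplnr was 189 and 184 CPM on chow and HFD in mesentery run A, 167 and 312 in run B, 81.4 and 231 in adipose run A, and 215 and 334 in run B. It was higher on HFD in 3 of 4 pairs and was not called in either tissue. The share of thinned capillary-like cells with a UMI of Aplnr in run B was 13.8% on chow and 22.6% on HFD in the mesentery, and 17.6% and 28.3% in adipose tissue (unthinned 36.8%, 62.5%, 56.1% and 63.6%). In run A the shares were 15.2% and 10.0%, and 6.25% and 23.6%.

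In arterial-like cells 2 of 7 members tested were called on HFD in the mesentery with the block, both higher (1.45% of all genes were called higher, 1.8% lower and 3.25% in all). Aplnr had 0 and 1 counts in run A, and went from 2.36 to 18.4 CPM in run B (7 and 58 counts). Its log2 change was 2.94 (SE 0.58, adjusted p = 0.00543 by edgeR). Because run A held next to no molecule of Aplnr, this change rests on 1 pair of libraries. Leaving out run B of mesentery on chow (log2 change 3.23, adjusted p = 0.877) or on HFD (8.31, adjusted p = 0.576) ended the edgeR call. So did keeping called doublets (1.07, adjusted p = 0.331), DESeq2 with the block (2.99, adjusted p = 0.231) and cluster 4 alone (2.31, adjusted p = 0.505). The summed capillary markers in arterial-like cells went from 229 to 580 CPM in run A and from 1373 to 4192 CPM in run B, and their part in the result was not tested.

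Unc5b was the other member called. It was 22.2 CPM on chow and 49.5 CPM on HFD in run A (17 and 18 counts), and 38.8 and 88.9 CPM in run B (115 and 281 counts), a log2 change of 1.12 (SE 0.28, adjusted p = 0.0249 by edgeR with the block). Both HFD libraries were above both chow libraries. In cluster 4 alone, the arterial-like cluster with the highest level, the log2 change was -0.08 (SE 0.31, adjusted p = 0.9999 by edgeR with the block). Cluster 17, the arterial-like cluster with the lowest level, made up 59.3% of mesenteric arterial-like cells on chow and 21.0% on HFD in run A, and 32.2% and 3.65% in run B. The Unc5b call was lost with doublets kept (adjusted p = 0.0512), in DESeq2 (adjusted p = 0.171), and in edgeR without run B of chow (0.93, adjusted p = 0.529) or of HFD (1.26, adjusted p = 0.593), all with the block. In arterial-like cells of adipose tissue 0 of 7 members were called by edgeR with the block (0.309% of all genes), 2 had an unadjusted p under 0.05, and DESeq2 with the block called 0.

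**Figure D4:**
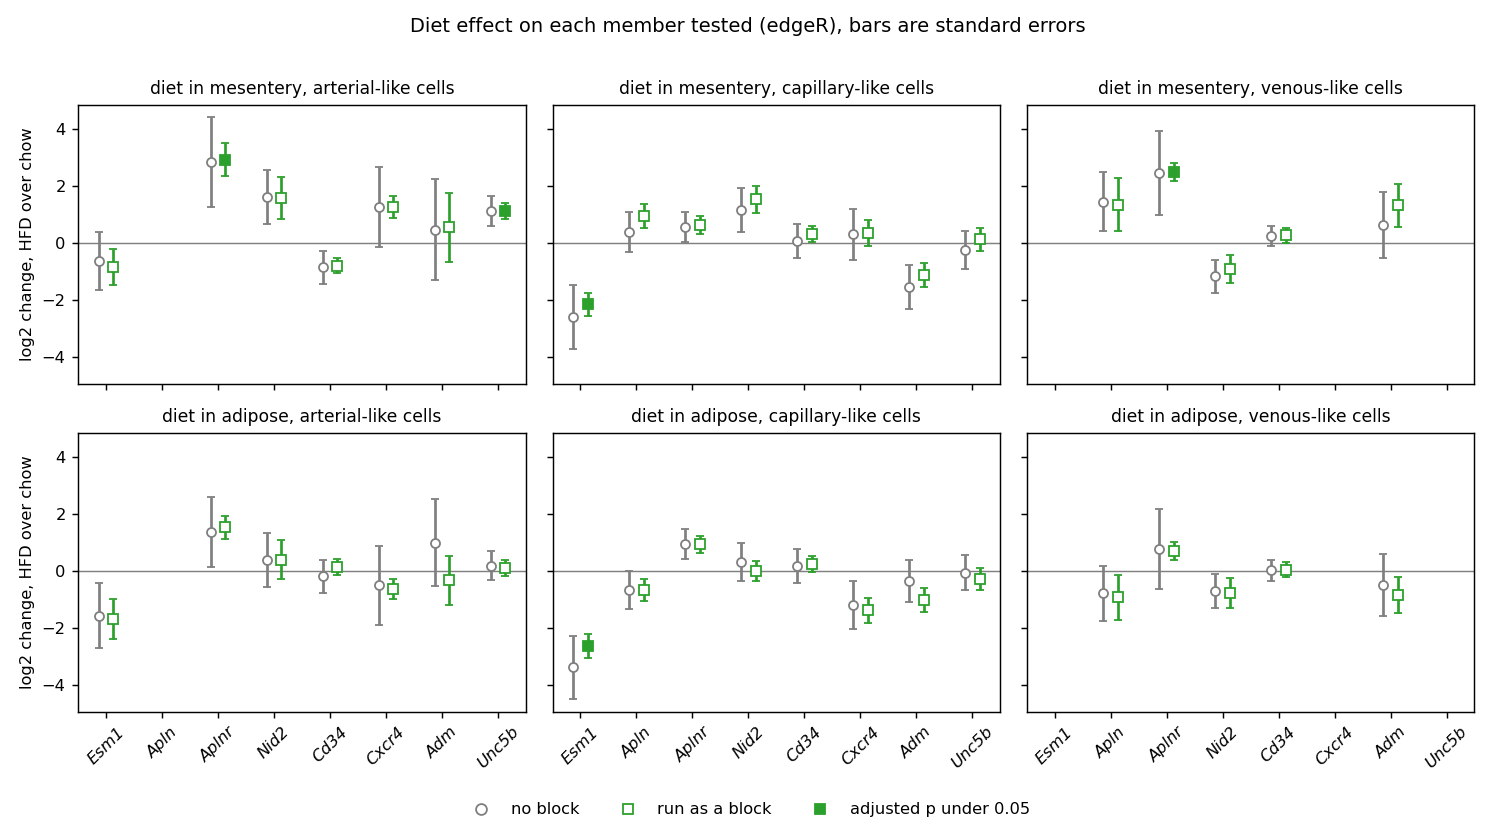
Log2 change of each member tested on HFD over chow, with standard errors, by tissue (rows) and class (columns), without the block (grey circles) and with the run as a block (green squares, filled where the adjusted p is under 0.05). The filled squares are Esm1 in capillary-like cells of both tissues, Aplnr in arterial-like and venous-like cells of the mesentery, and Unc5b in mesenteric arterial-like cells.

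The tissues were compared within each diet, and the comparison on chow shares the mesentery-on-chow libraries with the diet comparison in the mesentery. In arterial-like cells on chow 3 of 7 members were called with the block, 1 higher and 2 lower in the mesentery (1.74% of all genes were called higher, 1.8% lower and 3.53% in all). Cd34 was 598 CPM in the mesentery and 293 CPM in adipose tissue in run A, and 364 and 105 CPM in run B. Both mesenteric libraries were above both adipose libraries, and the log2 difference was 1.49 (SE 0.27, adjusted p = 0.00216 by edgeR with the block). Without the block edgeR gave 1.34 (SE 0.58, adjusted p = 1). In cluster 4 alone Cd34 was 141 and 344 CPM in run A and 160 and 109 CPM in run B, a log2 difference of -0.11 (adjusted p = 0.9999 by edgeR with the block). Cluster 17, the cluster with 668 CPM of Cd34, made up 11.8% and 3.69% of adipose arterial-like cells on chow in runs A and B, against the 59.3% and 32.2% in the mesentery. Without adipose on chow run B the edgeR call was lost (0.92, adjusted p = 0.436). In the same arterial-like cells the 9 venous markers summed to 2188 CPM in the mesentery and 881 CPM in adipose tissue in run A, and to 1335 and 551 CPM in run B. The 8 mural cell markers summed to 108 and 293 CPM in run A, and to 132 and 415 CPM in run B. The part of these markers in the Cd34 difference was not tested.

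Aplnr and Cxcr4 were lower in the mesentery, and both differences rest on run B. Aplnr was at 0 counts in both run A libraries, and at 2.36 CPM in the mesentery and 21.4 CPM in adipose tissue in run B (7 and 81 counts), a log2 difference of -3.06 (SE 0.57, adjusted p = 0.00247 by edgeR with the block). Cxcr4 had 0 and 1 counts in run A, and 19.2 and 61.1 CPM in run B (57 and 232 counts), a log2 difference of -1.63 (SE 0.38, adjusted p = 0.0142). Left out in turn, run B of mesentery (log2 differences -3.38 and -5.80, adjusted p = 0.844 and 0.496) and of adipose tissue on chow (0.53 and -1.62, adjusted p = 0.977 and 0.924) ended the edgeR calls for Aplnr and Cxcr4. With doublets kept the Aplnr difference was -1.13 and no longer called (adjusted p = 0.238 by edgeR with the block). DESeq2 with the block called neither of them (adjusted p = 0.323 and 0.807), and neither did edgeR with the block in cluster 4 alone (adjusted p = 0.124 and 0.9999). The summed capillary markers were 1373 CPM in mesenteric and 4671 CPM in adipose arterial-like cells of run B on chow, and their part in the result was not tested.

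In venous-like cells on chow 1 of 5 members was called with the block, lower in the mesentery (0.625% of all genes were called higher, 1.3% lower and 1.92% in all). This was Aplnr, at 3.52 CPM in the mesentery and 35.5 CPM in adipose tissue in run A, and at 67.0 and 201 CPM in run B, a log2 difference of -2.004 (SE 0.33, adjusted p = 0.00353 by edgeR). The call held with each library left out, and ended in cluster 6 alone (-1.03, adjusted p = 0.582 by edgeR with the block). On chow the class sat in different clusters in the 2 tissues. Cluster 7 held 83.6% and 70.8% of mesenteric venous-like cells in runs A and B and 3.20% and 5.18% of adipose ones, where cluster 14 held 67.2% and 42.4%, against 0.356% and 0.271% in the mesentery. The 7 capillary markers summed to 63.4 CPM in the mesentery and 205 CPM in adipose tissue in run A, and to 599 and 1698 CPM in run B. The 6 fibroblast markers summed to 28.9 and 458 CPM in run A, and to 16.2 and 214 CPM in run B. The part of both marker lists in the result was not tested. Apln, its ligand, was 0.391 and 4.18 CPM in run A and 2.10 and 10.0 CPM in run B, with 1, 2, 7 and 25 counts. Its log2 difference was -2.53 (SE 0.95, adjusted p = 1 by edgeR) and was not called with the block (-2.47, adjusted p = 0.163). Aplnr was thus lower in mesenteric venous-like cells on chow in both runs, and Apln was lower in run B. In run A the 1 and 2 counts of Apln are too few to set an order. The receptor alone passed the test. On chow, 0 of 8 members were called in capillary-like cells by edgeR with the block (0.306% of all genes), with 1 at an unadjusted p under 0.05 and 0 calls in DESeq2.

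On HFD edgeR with the block called 0 members between the tissues in arterial-like (0.126% of all genes called), capillary-like (0.0955%) and venous-like cells (0.192%). Of the members 1, 1 and 0 had an unadjusted p under 0.05, and DESeq2 with the block called 0. Whether the diet effect differed between the tissues was tested as an interaction, and with the block edgeR and DESeq2 both called 0 members in arterial-like (0.00966% of all genes called by edgeR), capillary-like (0%) and venous-like cells (0%), with 3, 3 and 2 members at an unadjusted p under 0.05. For Esm1 in capillary-like cells the interaction was 0.48 (SE 0.58, adjusted p = 1 by edgeR), and for Aplnr in venous-like cells it was 1.79 (SE 0.46, adjusted p = 0.765), printed because both were called for the diet. The diet effects of the members are therefore given by tissue and are not shown to differ between the tissues.

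Ligands, receptors and co-receptors of the members were followed as a list of 17 partners, all measured, of which 9 to 11 could be tested. In mesenteric arterial-like cells on HFD 4 of 9 partners passed with the block, 1 higher and 3 lower, beside 3.25% of all genes. Cxcl12, the CXCR4 ligand, was 62.6 CPM on chow and 272 CPM on HFD in run A, and 553 and 1720 CPM in run B (log2 change 1.73, SE 0.31, adjusted p = 0.00227). Ntn1 and Ntn4, netrins that bind UNC5 receptors, fell by 1.48 (adjusted p = 0.0104) and 1.12 (adjusted p = 0.0176). Calcrl, which forms the adrenomedullin receptor with RAMP proteins, fell by 1.06 (adjusted p = 0.0345), all by edgeR with the block. Only Cxcl12 was also called by DESeq2 with the block (adjusted p = 0.00282), which gave 0.0726 for Ntn1, 0.155 for Ntn4 and 0.291 for Calcrl. In cluster 4 alone, where 6 partners could be tested, 0 passed in edgeR with the block, and Cxcl12 changed by 0.67 (adjusted p = 0.9999). On chow 2 of 9 partners differed in arterial-like cells between the tissues, Ntn4 higher in the mesentery (1.60, adjusted p = 0.000865) and Cxcl12 lower (-1.36, adjusted p = 0.0163), beside 3.53% of all genes. In cluster 4 alone Ntn4 passed (1.93, adjusted p = 0.0119 by edgeR with the block) and Cxcl12 did not (-0.19, adjusted p = 0.9999). In venous-like cells on chow 3 of 11 differed, Cxcl12 lower in the mesentery (-1.68, adjusted p = 0.00650) and Ackr3, an atypical CXCL12 receptor, and Ntn4 higher (1.23 and 1.47, adjusted p = 0.00843 and 0.0376), beside 1.92% of all genes. With the block, DESeq2 did not call Ntn4 (adjusted p = 0.106), and in cluster 6 alone, where 7 partners could be tested, edgeR called 0 (Cxcl12 -0.41 and Ackr3 0.75, both with adjusted p = 0.9996). No partner passed in another comparison of a whole class with the block, and 0 passed in any without it. Unadjusted p-values under 0.05 without the block were reached by at most 2 partners in a comparison.

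The list of 21 other tip cell genes had 20 or 21 members tested. In capillary-like cells on HFD Igfbp3, which codes for an IGF-binding protein, moved as Esm1 did. It went from 1341 to 335 CPM in mesentery run A, from 185 to 50.8 CPM in run B, from 846 to 130 CPM in adipose run A and from 156 to 38.6 CPM in run B. All 4 pairs fell, with log2 changes of -1.94 (SE 0.29, adjusted p = 1.11e-05) and -2.16 (SE 0.29, adjusted p = 4.56e-07) by edgeR with the block. It was 1 of 2 list genes called in the mesentery, beside 0.678% of all genes, the other being the protease gene Mmp14 (2.61, adjusted p = 0.0450). In adipose tissue it was the only 1 called, beside 0.917% of all genes. The runs went opposite ways for Mmp14 in the mesentery. Its level fell from 31.4 to 10.8 CPM in run A (3 and 1 counts) and rose from 1.82 to 18.9 CPM in run B (7 and 109 counts). Igfbp3 was also called in both tissues by DESeq2 with the block (adjusted p = 0.000214 and 1.50e-06) and in cluster 1 alone (adjusted p = 2.44e-10 and 3.22e-06 by edgeR), whereas Mmp14 was not (adjusted p = 1 and 0.0945). In mesenteric arterial-like cells on HFD 7 of 21 passed with the block, 5 higher and 2 lower, beside 3.25% of all genes. The 4 of smallest p were Col4a2, a basement membrane collagen (1.36, adjusted p = 0.00266), Trp53i11 (1.81, adjusted p = 0.00536), the VEGF receptor gene Kdr (1.17, adjusted p = 0.0137) and Plaur, the urokinase receptor gene, which fell by 1.38 (adjusted p = 0.0180). The median log2 change of the 21 was 0.21 in that comparison, against -0.01 for all genes. DESeq2 with the block called 2 of the 21, Col4a2 and Kdr (adjusted p = 0.00188 and 0.0343). In cluster 4 alone, where 19 could be tested, edgeR with the block called 0, with Col4a2 at 1.14, Trp53i11 at 1.49 and Kdr at 0.42 (adjusted p = 0.125, 0.406 and 0.9999). In venous-like cells of the mesentery on HFD only Col4a1 passed (1.62, adjusted p = 0.0470 by edgeR with the block), beside 0.192% of all genes. It did not pass in cluster 6 alone (0.83, adjusted p = 1).

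Between the tissues on chow, 7 of 21 genes of this list passed in arterial-like cells with the block, 1 higher and 6 lower in the mesentery, beside 1.74% of all genes higher and 1.8% lower, with a median of -0.37 over the list. The smallest p-values belonged to Trp53i11 (-1.89, adjusted p = 0.00244), Igfbp3 (-2.36, adjusted p = 0.00266), Fscn1, which bundles actin in cell protrusions (-1.96, adjusted p = 0.00282), and Mmp14 (-1.80, adjusted p = 0.00956). DESeq2 with the block called none of these 4 (adjusted p = 0.135, 0.279, 0.0777 and 0.0501) and 1 of the 21 in all, Nrp1 (-0.91, adjusted p = 0.0359). In venous-like cells 6 of 20 passed, 1 higher and 5 lower, beside 0.625% of all genes higher and 1.3% lower, with a median of -0.68. Nrp1, the VEGF and semaphorin co-receptor (-1.93, adjusted p = 0.00165), Mmp14 (-1.92, adjusted p = 0.00722), Col4a2 (-1.97, adjusted p = 0.0134) and Plaur, higher in the mesentery (1.32, adjusted p = 0.0227), had the smallest p-values, all by edgeR with the block. DESeq2 with the block called 3 of the 20, Nrp1, Mmp14 and Col4a2 (adjusted p = 2.38e-05, 0.00869 and 0.00433). In the largest cluster alone, 4 in arterial-like and 6 in venous-like cells, edgeR with the block called 0 of the 19 tested in each class, and Nrp1 differed by -0.16 and -0.81 (adjusted p = 0.9999 and 0.726). No gene of this list passed in the other comparisons of a whole class with the block or in any without it, where at most 4 had an unadjusted p under 0.05.

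The genes most like each member across 93 points (1 endothelial cluster in 1 library, 6529 genes ranked) were found by Pearson's correlation of log2(CPM + 10), centred on each library's mean. Points of a library share its depth and run, so the values are descriptive. The points include the unnamed clusters led by haemoglobin, adipocyte and mural cell genes. The gene most like Apln was Aplnr itself, with r = 0.74, followed by Gm12002 (0.74) and Ccdc85a (0.72). Esm1 was most like Gm12002 (0.73), Ccdc85a (0.70) and Impdh1 (0.68), and Aplnr most like Scarb1, the HDL receptor gene (0.86), Ccdc85a (0.84) and the collagen gene Col15a1 (0.82). Cd34 was most like Jam2 (0.88), Pltp (0.87) and Abcb1a (0.87). Adm was most like Angpt2 (0.73), Spp1 (0.72) and Slc41a1 (0.72), Unc5b most like Gprc5b (0.78), Flt4 (0.76) and Galnt18 (0.76), Cxcr4 most like Myo10 (0.74), Npr3 (0.71) and Rbp7 (0.70), and Nid2 most like Gng2 (0.76), Lyn (0.74) and Tspan18 (0.74).

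Within capillary-like cells thinned to the same depth, the members were counted together in single cells. Over all libraries 7 of 129 capillary-like cells with Esm1 also held Aplnr (5.43%), against 1056 of 5182 cells without Esm1 (20.4%). The pooled figure mixes diets and runs. In adipose on chow run B it was 3 of 62 cells (4.84%) against 388 of 2154 (18.0%), and in mesentery on chow run B 3 of 35 (8.57%) against 117 of 833 (14.05%). Unc5b was held by 10.9% of capillary-like cells with Esm1 and 2.97% of those without. Of 117 capillary-like cells with Apln, 19.7% held Aplnr, against 20.02% of those without Apln. Cd34 was held by 54.7% and 31.4% of the same 2 sets, Cxcr4 by 11.1% and 2.97%, and Nid2 by 8.55% and 1.77%. Cells of a library are not replicates, so these shares carry no test.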

How the data were processed

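Single-cell libraries were made with 3' v3.1 chemistry and deposited as UMI counts per gene and barcode. Per the file headers, run A was counted with software version 3.0.2 and run B with version 5.0.0. The submitters' processing notes name mm10 and Seurat 4.3.0. No source at hand states the gate of the YFP sort.

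From the deposited counts of 27944 barcodes, those with at least 500 UMIs, 300 genes and at most 10% mitochondrial UMIs were kept (23970). The mitochondrial limit removed 22.8 to 30.78% of run A and 5.425 to 8.958% of run B barcodes. Doublet scores led to the removal of 857 cells, the rate set by the loading, because an automatic threshold marked 36. Cells were clustered on 2000 variable genes, from which the 8 members and both gene lists were left out, with 30 components, a Harmony-style correction for run and Leiden resolution 1.0 (scanpy 1.11.5, leidenalg 0.10.2, Python 3.11.15).

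Counts were summed per library and class and tested over 10354 arterial-like, 10473 capillary-like and 10408 venous-like genes that passed filterByExpr, with edgeR 4.0.16 (quasi-likelihood test, TMM) in R 4.3.3 and with DESeq2 1.42.0 as the alternative. The run block is set beside the fit without it because the labels describe the runs as a repeat of the experiment. Run differences correlated between every pair of groups, at 0.4969 to 0.6221 in arterial-like, 0.2788 to 0.3598 in capillary-like and 0.4995 to 0.6891 in venous-like genes (6 pairs each). On data simulated for the mesentery diet comparison in capillary-like cells, with 10369 genes and the block, the test recovered 27% of 4-fold and 70% of 8-fold changes. The simulation took its means and library sizes from the data. Its spread between libraries and its run effect were set in advance and not estimated from them. The shares recovered therefore do not measure the power of this experiment.

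A log2 change is printed where a member passed with or without the block, or had an unadjusted p under 0.05 without it, and at most 4 list genes by smallest p are named per comparison. The members and lists were chosen with earlier results of these data known, and the limits for naming clusters were set after the clusters were seen. Shares of cells were counted after thinning to 1000 UMIs, which left out 2693 cells. Alternatives covered the filters, doublets, resolution, the tool, the block, each library and the largest cluster of a class.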

Additional observations from a re-analysis of the deposited data

How the results depend on the processing

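Without the run block, no member was called under DESeq2, resolution 2.0, the 20% mitochondrial limit, doublets kept, the largest cluster alone or any library left out (0 to 0). Without a filter on low counts 1 member, Esm1 in capillary-like cells and Aplnr in the others, was called in each of 5 comparisons: arterial-like diet in mesentery, arterial-like tissue on chow, capillary-like diet in adipose, venous-like diet in mesentery and venous-like tissue on chow. Adding the replicate block, with the run as the pairing, gave 2 and 3 members in arterial-like cells (diet in mesentery, tissue on chow), 1 in each diet comparison of capillary-like cells, and 1 each in venous-like cells (diet in mesentery, tissue on chow), and changed no other count.

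Alternatives with the block, and the largest cluster alone, were chosen after seeing the data. With doublets kept, 1 member was called for the mesentery diet in arterial-like cells, Cxcr4, in place of Aplnr and Unc5b. DESeq2 called 0 there, 1 for tissue on chow in arterial-like cells and 0 for the mesentery diet in capillary-like cells, where a 20% mitochondrial limit gave 2 (Esm1 and Nid2). The largest cluster alone gave 0 in arterial-like and venous-like cells for the mesentery diet and for tissue on chow, and 2 for the adipose diet in capillary-like cells (Esm1 and Adm). With each library left out, 0 to 3 members were called in both arterial-like comparisons, 0 to 2 (mesentery) and 0 to 3 (adipose) for the diets in capillary-like cells, and 0 to 1 for the mesentery diet in venous-like cells. A lone library was assumed there to vary like the others. The cause of these changes was not tested.

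Within cluster 4, Unc5b changed by -0.25 without and -0.076 with the block (mesentery diet), and Cd34 by -0.58 and -0.11 (tissue on chow). These signs oppose the whole class, but the runs disagreed. From chow to HFD, Unc5b went from 117 to 54.3 CPM in run A (10 and 7 counts) and from 94.0 to 105 CPM in run B (80 and 238 counts). Cd34 in mesentery and adipose tissue was 141 and 344 CPM in run A (12 and 44 counts), and 160 and 109 CPM in run B (136 and 267 counts). Run B thus went the way of the class, and no reversal is shown. With a library left out, the log2 difference of Aplnr in arterial-like cells on chow ranged from -7.60 to 4.54 without the block and from -3.38 to 0.53 with it, that of Cxcr4 from -8.97 to 1.91 without it, and the mesentery diet change of Aplnr in venous-like cells from -0.37 to 5.57 without it. Depth limits run A most: 3 counts correspond to 12.15 to 32.45 CPM in its capillary-like cells, so lower levels there are imprecise.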

Other observations

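Unnamed endothelial cluster 25, led by the cell cycle genes Mki67 and Top2a, combined Apln with Nid2. In the 3 libraries with at least 20 of its cells, Apln averaged 71.3 ± 37.3 CPM, Nid2 83.3 ± 39.0, Aplnr 156 ± 42.8, Cd34 340 ± 146 and Cxcr4 34.8 ± 3.71 CPM (SD, n = 3), while Esm1 averaged 3.97 ± 5.03 CPM on 6 counts. These 3 libraries were adipose on chow, adipose on HFD and mesentery on HFD, all of run B. In them, and in that order, capillary-like cluster 1 held 75.7, 24.2 and 56.3 CPM of Apln. It held 61.0, 23.5 and 38.9 CPM of Nid2 and 30.4, 6.42 and 13.1 CPM of Esm1. The cluster held 14 and 38 cells in mesentery run B and 50 and 63 in adipose run B on chow and HFD, and 4 to 7 cells per library in run A.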
